A study of Mus musculus with 8 samples.

Results

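The genes described are those of the tumor necrosis factor (TNF) and NF-κB feedback circuit, measured by single-cell RNA sequencing of mouse left ventricle. They were chosen by symbol, as 10 of the 27998 genes listed, and each symbol occurred once. The members were the ligand Tnf, the receptors Tnfrsf1a and Tnfrsf1b, the NF-κB subunits Nfkb1 and Rel, and the inhibitors and feedback genes Nfkbia, Tnfaip3, Nfkbiz, Birc3 and Tnip3. Mice were 10- to 12-week-old males kept on a C57BL/6 background, and the labels give no genotype. Under the study's general surgical methods, the left coronary artery was tied for 30 min and reperfused (IR), and sham mice had the same surgery without the tie. Cells were taken 6 h after surgery, from digests that pooled 3 hearts into a sample. The records list 4 samples named IR0h and 4 named IR6h, but the cells of each time lie in 1 matrix with no mark of the sample. Each condition was therefore 1 library, here called sham (IR0h) and IR (IR6h), although the records do not state that 0 h stands for sham surgery. Differences between the libraries therefore lack any replicate, and they are given without p values.

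TNF binds TNFR1 (Tnfrsf1a), found on most cells, or TNFR2 (Tnfrsf1b), found mainly on leukocytes and endothelium, and the bound receptor activates the IκB kinases. IκBα (Nfkbia), which holds NF-κB dimers in the cytoplasm, is then degraded, and the dimers enter the nucleus. Their targets include Nfkbia itself and Tnfaip3 (A20, which edits ubiquitin chains on the receptor complex), so that the pathway limits its own activity. In the heart after reperfusion, macrophages and infiltrating neutrophils are known producers of TNF.

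After the study's filter on cells, 9777 sham cells with 40607011 unique molecular identifiers (UMIs, 1 per captured transcript) and 4880 IR cells with 21441943 UMIs were kept, of 11620 and 8539 barcodes in the matrices, and 30 barcodes occurred in both libraries. Both numbers of kept cells, and most of all that of IR, are below those the study states after its quality control, although the limits are the ones in its methods. Of the barcodes, 1600 in sham and 3385 in IR were above the limit on genes. Cells were clustered without the 10 members, and 12 cell classes were named from marker genes. Of these, 8 classes with at least 50 cells in each library were compared. In these 8, the markers of a class summed to between 2351 and 190033 counts per 1000000 UMIs (CPM) inside it and to between 10.8 and 2035 CPM in the other classes together. All of these markers had UMIs in their own class in both libraries, and all were above their level in the other classes except 1 of 13 in sham macrophage/monocyte-like cells. A level is the summed UMIs of a gene per 1000000 UMIs of all cells of a class, and a ratio is the IR level over the sham level on the log2 scale. The 95% intervals (exact Poisson for levels, conditional binomial for ratios, exact binomial for shares of cells) cover counting error only. The filter removed cells with over 2500 genes, which were 66.3% of IR and 12.2% of sham macrophage/monocyte-like cells and 86.0% of IR and 15.4% of sham fibroblast-like cells when clustered without it. Values without this limit are given where they changed a 2-fold call. Shares of a gene's UMIs held by each class were computed with the limit only.

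Feedback genes of this circuit are classical NF-κB targets, so the bases before their transcription starts are shown for the members that held the NF-κB consensus. The 10-base consensus was searched on both strands in the 250 bases upstream of RefSeq starts (GRCm38.p6). Of the 8 members with a promoter in that table, 4 (Nfkbia, Tnfaip3, Rel and Tnip3) held a match, against 4.46% of the 27025 genes with a promoter. The sequences below are written 5′ to 3′ on the strand of the gene, with matches in capitals. In Rel, 2 overlapping matches run together.

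Nfkbia, chr12:55492648-55492726, minus strand: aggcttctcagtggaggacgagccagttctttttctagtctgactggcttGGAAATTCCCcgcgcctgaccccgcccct

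Tnfaip3, chr10:19015411-19015585, minus strand: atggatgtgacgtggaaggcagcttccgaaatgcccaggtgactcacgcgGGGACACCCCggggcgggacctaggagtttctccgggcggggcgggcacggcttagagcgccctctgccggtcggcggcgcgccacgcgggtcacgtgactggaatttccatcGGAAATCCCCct

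Rel, chr11:23771001-23771111, minus strand: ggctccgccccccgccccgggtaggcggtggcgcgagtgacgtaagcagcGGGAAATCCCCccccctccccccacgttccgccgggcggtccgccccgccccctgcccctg

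Tnip3, chr6:65590294-65590397, plus strand: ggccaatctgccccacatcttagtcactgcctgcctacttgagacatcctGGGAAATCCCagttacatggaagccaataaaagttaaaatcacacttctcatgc

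The match of Nfkbia began 29 bases before the start, those of Tnfaip3 125 and 12 bases before, and that of Tnip3 54 bases before. The window of Tnip3 lies inside the GENCODE vM21 gene, which begins at chr6:65525313, so this RefSeq start is an internal one there. The printed bases of Tnfaip3 also lie inside the GENCODE vM21 gene, whose minus-strand start is at chr10:19015657, so both of its matches are downstream of that start. A second RefSeq start of Tnfaip3, and the windows of Tnf, Tnfrsf1a, Tnfrsf1b and Birc3, held no match, which says only that these letters are not in those 250 bases. The Tnfrsf1a window, too, lies inside its GENCODE vM21 gene, which begins at chr6:125349362, so it is downstream of that start. The second window of Tnfaip3 also lies inside its gene. A match is a description of the letters and not a measured site.

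Among the cells kept under the limit on genes, most Tnf UMIs of sham came from macrophage/monocyte-like cells, and most of IR from neutrophil-like cells. Macrophage/monocyte-like cells held 94.4% of the Tnf UMIs of kept cells in sham and 33.7% in IR, while their share of all UMIs was 39.6% and 23.3%. Neutrophil-like cells, which were 246 of the sham and 2378 of the IR cells, held 1.4% of the Tnf UMIs in sham and 65.0% in IR. Of the Nfkbia, Tnfaip3 and Nfkbiz UMIs of kept IR cells, 79.4%, 71.1% and 72.8% were in neutrophil-like cells. These held 46.4% of all UMIs of kept cells in IR and 1.2% in sham. Tnip3 differed from these, with 81.5% of its UMIs in macrophage/monocyte-like cells in sham and 89.2% in IR. These shares cover kept cells only. The limit on genes removed 66.3% of IR macrophage/monocyte-like but 3.39% of IR neutrophil-like cells, as clustered without it. Kept IR cells held 10238 of the 25621 Tnf UMIs over all IR barcodes. For Nfkbia they held 99858 of 239274, for Tnfaip3 10438 of 24629, for Nfkbiz 24089 of 62223 and for Tnip3 565 of 2549. Shares by class were not computed without the limit, and the order of the classes may differ there.

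**Figure D1:**
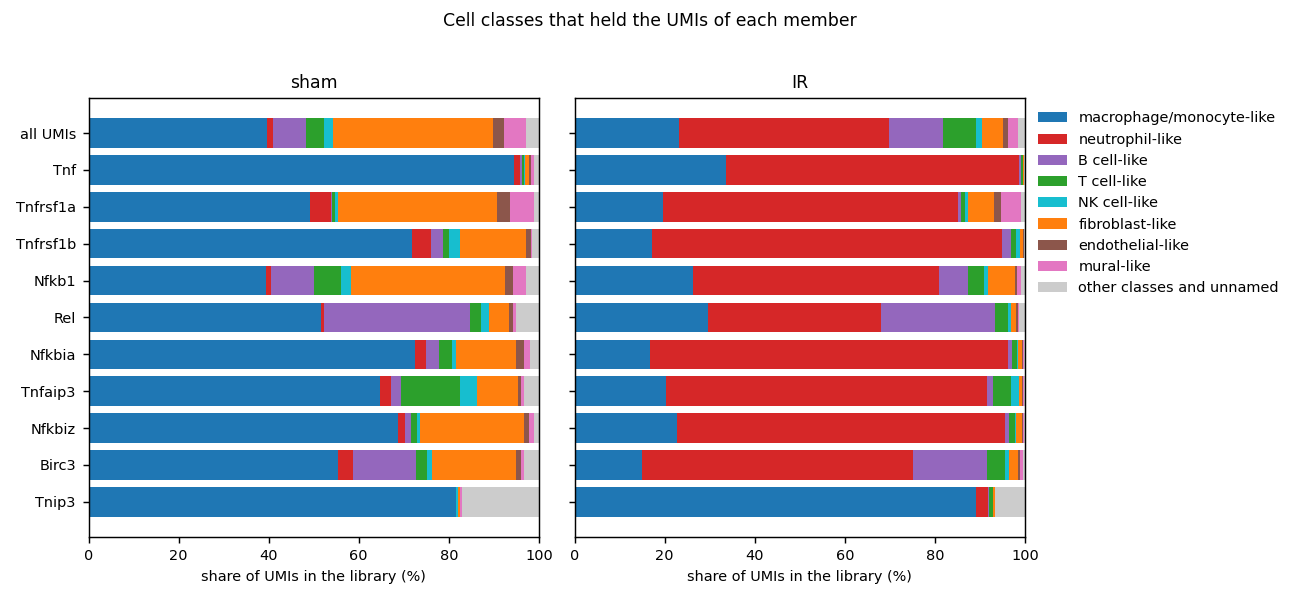
Share of each member's UMIs (%, horizontal axis) held by each cell class, in the sham library (left) and the IR library (right). Only cells kept under the limit on genes are counted. The top bar gives the share of all UMIs of the kept cells of the library. The neutrophil-like share of Nfkbia is 2.4% in sham and 79.4% in IR, while that of Tnip3 stays under 3%.

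The level of the ligand gene Tnf (ENSMUSG00000024401, chr17:35199381-35202007) was higher in IR than in sham in both myeloid classes. In macrophage/monocyte-like cells it was 299 CPM in sham (4814 UMIs) and 691 CPM in IR (3451 UMIs), a log2 ratio of 1.21 (1.15 to 1.27). In neutrophil-like cells it was 138 CPM in sham (69 UMIs) and 668 CPM in IR (6652 UMIs), a log2 ratio of 2.27 (1.93 to 2.64). The 2 classes thus stood apart in sham and had overlapping intervals in IR. All lymphoid and stromal classes lay far below them, at 3.06 to 28.7 CPM in sham and 14.7 to 40.1 CPM in IR. In fibroblast-like cells Tnf was 3.06 CPM (44 UMIs) and 20.1 CPM (20 UMIs), a log2 ratio of 2.72 (1.88 to 3.51). Neutrophil RNA, scaled by S100a8 and S100a9, would account for 45.8% of those 20 UMIs and for 39.1% of the B cell-like Tnf UMIs in IR. Fibroblast-like Tnf passed the filter on low values only through its IR level.

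The share of cells with Tnf was compared after each cell was thinned to 1000 UMIs, since IR cells were deeper (median 3937.5 against 1630.5 UMIs in neutrophil-like cells and 6071.5 against 4663 in macrophage/monocyte-like cells). In macrophage/monocyte-like cells 21.9% (20.5 to 23.3) of 3291 sham cells and 31.5% (28.3 to 34.8) of 816 IR cells had a Tnf UMI, with 102 and 70 shallower cells left out. In neutrophil-like cells the share was 9.91% (6.39 to 14.5) of 232 sham cells and 31.8% (29.8 to 33.7) of 2257 IR cells, with 14 and 121 left out. In fibroblast-like cells, a class that should lack the gene, it was 0.342% in sham and 1.82% in IR, at median depths of 4974 and 4163 UMIs. Without thinning, the shares were 48.6% and 56.0% in macrophage/monocyte-like cells, 15.4% and 54.9% in neutrophil-like cells, and 1.21% and 6.52% in fibroblast-like cells. Both myeloid classes were above the fibroblast-like share in both libraries, with and without thinning.

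**Figure D2:**
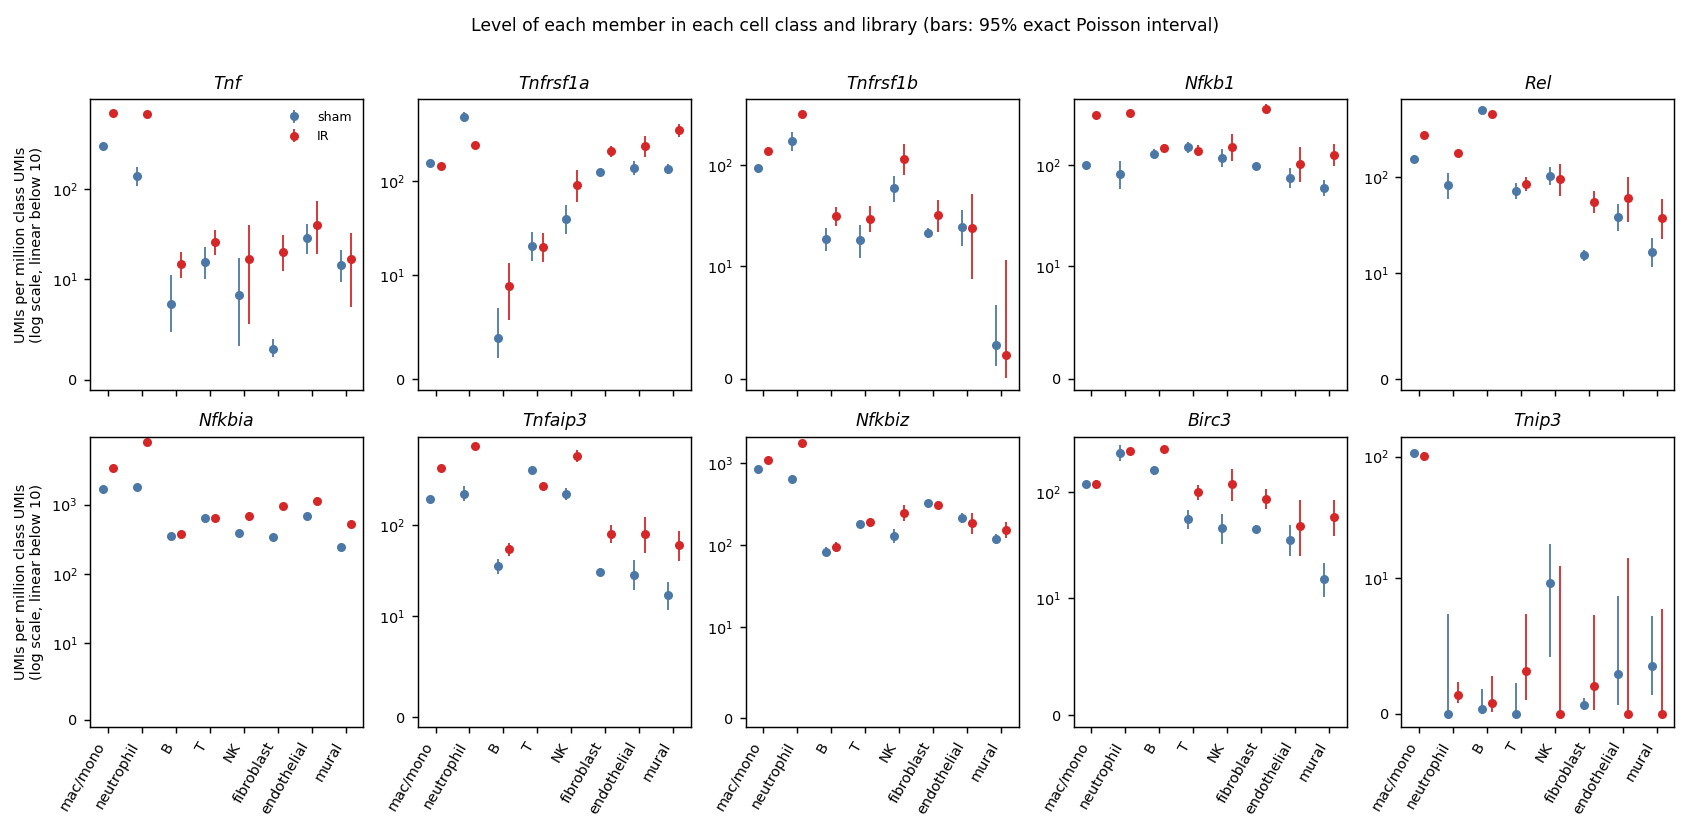
Level of each of the 10 members (CPM, log scale above 10 and linear below) in the 8 cell classes, with 1 point for sham (blue) and 1 for IR (red) and bars for the 95% exact Poisson interval. Tnf stands above 100 CPM in both libraries in the 2 myeloid classes and below 50 CPM elsewhere, and Tnip3 stands above 10 CPM only in macrophage/monocyte-like cells.

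The receptor genes were found in different classes. Tnfrsf1a (ENSMUSG00000030341, chr6:125349362-125362484), which encodes the receptor that carries a death domain, was measured in every stromal class. In fibroblast-like cells it had 126 CPM (sham) and 210 CPM (IR) (log2 ratio 0.74, 0.53 to 0.95), and 139 and 237 CPM in endothelial-like cells (0.76, 0.30 to 1.21). In mural-like cells, the pericytes and smooth muscle cells of vessels, it was 137 and 349 CPM (1.36, 1.07 to 1.64), the highest of the 8 classes in IR. In neutrophil-like cells the order was the other way, with 487 CPM in sham and 242 CPM in IR (log2 ratio -1.01, -1.20 to -0.81). The ratio was at the edge of 2-fold, beside a median of -0.26 over all genes tested in these cells, and it was -0.99 with a mitochondrial limit of 10%. Macrophage/monocyte-like cells had nearly the same level in both libraries (157 and 145 CPM, -0.11, -0.24 to 0.01). NK cell-like cells had 39.8 and 91.8 CPM from 33 and 27 UMIs (1.20, 0.41 to 1.98), and the ratio was 0.86 without the limit on genes. T cell-like cells had about 20 CPM in both libraries, and B cell-like cells under 10 CPM.

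Among the 8 classes, Tnfrsf1b (ENSMUSG00000028599, chr4:145213463-145246870) was highest in neutrophil-like cells, with 174 CPM in sham and 320 CPM in IR (log2 ratio 0.88, 0.57 to 1.20). Macrophage/monocyte-like cells followed, with 94.3 and 140 CPM (0.57, 0.44 to 0.70), and NK cell-like cells with 59.2 and 116 CPM (0.97, 0.29 to 1.63). No class passed 2-fold for this receptor in either direction. B, T and fibroblast-like cells had 18.0 to 32.2 CPM, endothelial-like cells 24.7 and 24.1 CPM, and mural-like cells 7 UMIs over both libraries. Mural-like cells thus had the highest Tnfrsf1a level and the lowest Tnfrsf1b level of the 8 classes in IR.

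Nfkb1 (ENSMUSG00000028163, chr3:135584655-135691547) encodes the precursor of the p50 subunit. Its level differed little between classes in sham, from 60.2 CPM in mural-like to 152 CPM in T cell-like cells, and all neighbors in that order had overlapping intervals. In IR, 3 classes stood above the rest with overlapping intervals between neighbors, at 365 CPM in fibroblast-like, 332 CPM in neutrophil-like and 317 CPM in macrophage/monocyte-like cells. The next class, NK cell-like, had 153 CPM. The log2 ratios in the 3 classes were 1.90 (1.73 to 2.07), 2.01 (1.57 to 2.49) and 1.64 (1.54 to 1.75). Without the limit on genes the fibroblast-like ratio was 0.94, and those of the neutrophil-like and macrophage/monocyte-like cells were 2.03 and 1.33. Mural-like cells had 60.2 and 128 CPM (1.08, 0.61 to 1.54), and 0.36 without the limit. B, T and NK cell-like cells had log2 ratios between -0.11 and 0.36, each with an interval that held 0.

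Rel (ENSMUSG00000020275, chr11:23736847-23770970) encodes c-Rel, the subunit best known from lymphocytes. Among the 8 classes, B cell-like cells had its highest level in both libraries, 508 CPM in sham and 459 CPM in IR (log2 ratio -0.14, -0.26 to -0.03). They held 32.3% of Rel UMIs in sham, where they had 7.5% of all UMIs. Macrophage/monocyte-like cells had 154 and 276 CPM (0.85, 0.75 to 0.94), and neutrophil-like cells 82.2 CPM from 41 UMIs and 180 CPM from 1791 UMIs (1.13, 0.68 to 1.61). The neutrophil-like ratio passed 2-fold only narrowly, and it was 0.34 when each cell was classed by its own marker UMIs and 0.79 as a mean over cells. In fibroblast-like cells Rel was 15.2 and 55.4 CPM (1.86, 1.41 to 2.30), and without the limit on genes the ratio was 0.71. T cell-like cells had 71.6 and 85.04 CPM of Rel, NK cell-like cells 103 and 95.2 CPM and endothelial-like cells 38.6 and 60.2 CPM, and the intervals of these 3 ratios held 0. In mural-like cells it was 16.6 CPM from 33 UMIs and 37.7 CPM from 18 UMIs (1.19, 0.27 to 2.06), and without the limit the ratio turned to -0.27.

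Nfkbia (ENSMUSG00000021025, chr12:55489410-55492647) had a log2 ratio whose interval lay above 0 in all but the B and T cell-like classes. In neutrophil-like cells it was 1776 CPM in sham and 7968 CPM in IR (log2 ratio 2.17, 2.07 to 2.26). In macrophage/monocyte-like cells it was 1666 and 3353 CPM (1.01, 0.98 to 1.04), so that 2 classes with overlapping intervals in sham stood apart in IR. The share of thinned neutrophil-like cells with an Nfkbia UMI was 58.2% (51.6 to 64.6) in sham and 92.8% (91.7 to 93.9) in IR, while in macrophage/monocyte-like cells it was 68.9% (67.3 to 70.5) and 74.1% (71.0 to 77.1). Fibroblast-like cells had 341 and 945 CPM (1.47, 1.37 to 1.57), endothelial-like cells 689 and 1143 CPM (0.73, 0.53 to 0.93) and mural-like cells 241 and 519 CPM (1.10, 0.88 to 1.33). B cell-like cells had 354 and 376 CPM (0.09, -0.04 to 0.21) and T cell-like cells 643 and 632 CPM (-0.02, -0.15 to 0.10). NK cell-like cells had 390 and 680 CPM (0.80, 0.54 to 1.06), but S100a8 and S100a9 reached 7707 CPM in their IR cells, and with neutrophil RNA removed in that proportion the ratio was -1.13.

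Tnfaip3 (ENSMUSG00000019850, chr10:19000910-19015657) encodes A20 and differed among the lymphoid classes. Among the 8 classes, T cell-like cells had its highest level in sham, 404 CPM, and a lower one in IR, 272 CPM (log2 ratio -0.57, -0.75 to -0.39). NK cell-like cells had 220 and 575 CPM (1.39, 1.08 to 1.70). Neutrophil RNA would account for 8.4% of these IR UMIs, and for 17.1% of those of Tnfrsf1a and 13.4% of those of Birc3 in the same cells. The T cell-like and NK cell-like ratios had opposite signs, and the difference between them was not tested. The T cell-like class held a cluster led by Gata3, Icos and Il5 with 76 sham and 25 IR cells, and at a clustering resolution of 1.5 its ratio was -0.41. Neutrophil-like cells had 223 and 746 CPM (1.75, 1.47 to 2.03), the highest level in IR, and macrophage/monocyte-like cells 197 and 426 CPM (1.11, 1.03 to 1.19). Fibroblast-like cells had 30.7 and 80.5 CPM (1.39, 1.03 to 1.74), endothelial-like cells 28.7 and 80.2 CPM (1.48, 0.58 to 2.36) and mural-like cells 17.1 and 60.7 CPM (1.83, 1.06 to 2.59). Without the limit on genes these 3 stromal ratios were 0.96, 1.0 and 0.52. B cell-like cells stayed low, with 35.7 and 54.3 CPM.

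Nfkbiz (ENSMUSG00000035356, chr16:55811375-55838899) encodes IκBζ, a nuclear IκB protein that acts with p50 on secondary response genes. With the limit on genes it passed 2-fold in neutrophil-like cells alone, with 645 CPM in sham and 1763 CPM in IR (log2 ratio 1.45, 1.29 to 1.61). Macrophage/monocyte-like cells had 859 and 1094 CPM (0.35, 0.30 to 0.39), with the highest level of the 8 classes in sham. The thinned share of macrophage/monocyte-like cells with a UMI was 50.1% (48.4 to 51.9) and 49.0% (45.5 to 52.5), so the higher summed level was not matched by a higher share of cells. Fibroblast-like cells had 324 and 311 CPM (-0.06, -0.23 to 0.11), although Nfkbia differed 2.77-fold in the same cells. The intervals of the ratio also held 0 in B cell-like (82.9 and 95.1 CPM), T cell-like (180 and 190 CPM), endothelial-like (216 and 184 CPM) and mural-like cells (119 and 155 CPM). NK cell-like cells had 129 and 248 CPM (0.94, 0.49 to 1.39), and 1.14 without the limit on genes, while neutrophil RNA would account for 46.1% of these IR UMIs.

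Birc3 (ENSMUSG00000032000, chr9:7848699-7873186), which encodes the ubiquitin ligase cIAP2, was the member with the smallest difference in the myeloid classes. It was 121 CPM in both libraries in macrophage/monocyte-like cells (log2 ratio 0.01, -0.13 to 0.14) and 237 and 245 CPM in neutrophil-like cells (0.05, -0.22 to 0.33). Lymphoid classes had higher values in IR, with 161 and 257 CPM in B cell-like (0.67, 0.50 to 0.85), 55.4 and 100.2 CPM in T cell-like (0.85, 0.47 to 1.25) and 45.9 and 119 CPM in NK cell-like cells (1.38, 0.67 to 2.08). The T cell-like ratio was 1.05 without the limit on genes. Fibroblast-like cells had 45.3 and 86.5 CPM (0.93, 0.59 to 1.26) and endothelial-like cells 35.6 and 48.1 CPM (0.43, -0.64 to 1.41). Mural-like cells had 15.1 CPM from 30 UMIs and 58.6 CPM from 28 UMIs (1.96, 1.16 to 2.75), and 1.18 without the limit on genes. With the limit, Birc3 was past 2-fold only in NK cell-like and mural-like cells among the 8 classes.

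Tnip3 (ENSMUSG00000044162, chr6:65525313-65634040) encodes ABIN-3, a partner of A20. It was 108 CPM in sham and 101 CPM in IR in macrophage/monocyte-like cells (log2 ratio -0.10, -0.25 to 0.04), and under 10 CPM in the other 7 classes in both libraries. The 62 dendritic cell-like cells of sham had 832 CPM, the highest level of the gene in that library. The 6 dendritic cell-like cells of IR, too few to compare, had 1027 CPM, and also 784 CPM of Rel and 351 CPM of Tnfrsf1a. In neutrophil-like cells Tnip3 had 0 UMIs in sham and 14 UMIs in IR, 1.41 CPM.

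Members 2-fold or more higher in IR were counted in each class, and the order of the classes in this count depended on the limit on genes. In neutrophil-like cells 9 of 10 members passed the filter on low values (at least 20 UMIs over both libraries and a mean of 10 CPM), 6 were 2-fold or more higher in IR (Tnf, Nfkb1, Rel, Nfkbia, Tnfaip3 and Nfkbiz) and 1 was lower (Tnfrsf1a). Among the 4709 genes tested there, 11.6% were 2-fold or more higher and 18.0% lower. In macrophage/monocyte-like cells all 10 passed, 4 were higher (Tnf, Nfkb1, Nfkbia and Tnfaip3) and none lower, against 9.83% and 7.33% of 6958 genes. As a mean over cells, where each cell weighs the same, only Nfkb1 was past 2-fold, with Tnf at 0.90, Tnfaip3 at 0.90 and Nfkbia at 0.85. In fibroblast-like cells 9 passed and 5 were higher (Tnf, Nfkb1, Rel, Nfkbia and Tnfaip3), of which Tnf could pass the filter only by being higher in IR, which leaves 4 of 8, against 14.2% higher and 14.5% lower of 7999 genes. In mural-like cells 8 passed and 6 were higher (Tnfrsf1a, Nfkb1, Rel, Nfkbia, Tnfaip3 and Birc3), against 8.54% higher and 8.6% lower of 8431 genes. Without the limit on genes the count was 2 in fibroblast-like cells (Tnf and Nfkbia), where 10.6% of all genes were higher. With Tnf set aside as above, this leaves Nfkbia alone. In mural-like cells the count was 3 (Tnfrsf1a, Nfkbia and Birc3), where 6.0% of all genes were higher.

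Among the remaining classes, NK cell-like cells had 8 members measured and 3 higher (Tnfrsf1a, Tnfaip3 and Birc3), against 14.0% higher and 9.38% lower of 5589 genes. Endothelial-like cells had 9 measured and 1 higher (Tnfaip3), against 8.72% higher and 14.5% lower of 6769 genes. B and T cell-like cells had 8 and 9 measured, and none passed 2-fold in either direction. The share of all genes past 2-fold was also smallest there, with 3.58% higher and 3.14% lower of 6845 genes in B cell-like and 4.4% and 3.94% of 6530 in T cell-like cells. Without the limit on genes, Birc3 in T cell-like (1.05), Nfkbia, Nfkbiz and Tnf in NK cell-like (1.01, 1.14 and 1.87) and Tnf in endothelial-like cells (1.41) were also past 2-fold. The share of all genes higher in that setting was 4.4%, 11.9% and 6.16% in these 3 classes. Under the limit, neutrophil RNA would account for 76.0% of the Nfkbia, 46.1% of the Nfkbiz and 100% of the 5 Tnf UMIs in NK cell-like cells of IR. The median log2 ratio of the measured members was 1.45 in neutrophil-like, 1.16 in fibroblast-like (without Tnf), 1.14 in mural-like, 0.95 in NK cell-like and 0.71 in macrophage/monocyte-like cells. It was 0.48 in endothelial-like, 0.20 in B cell-like (without Tnf, for the same reason) and 0.07 in T cell-like cells. The median over all genes tested lay between -0.26 and 0.17 in the 8 classes.

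**Figure D3:**
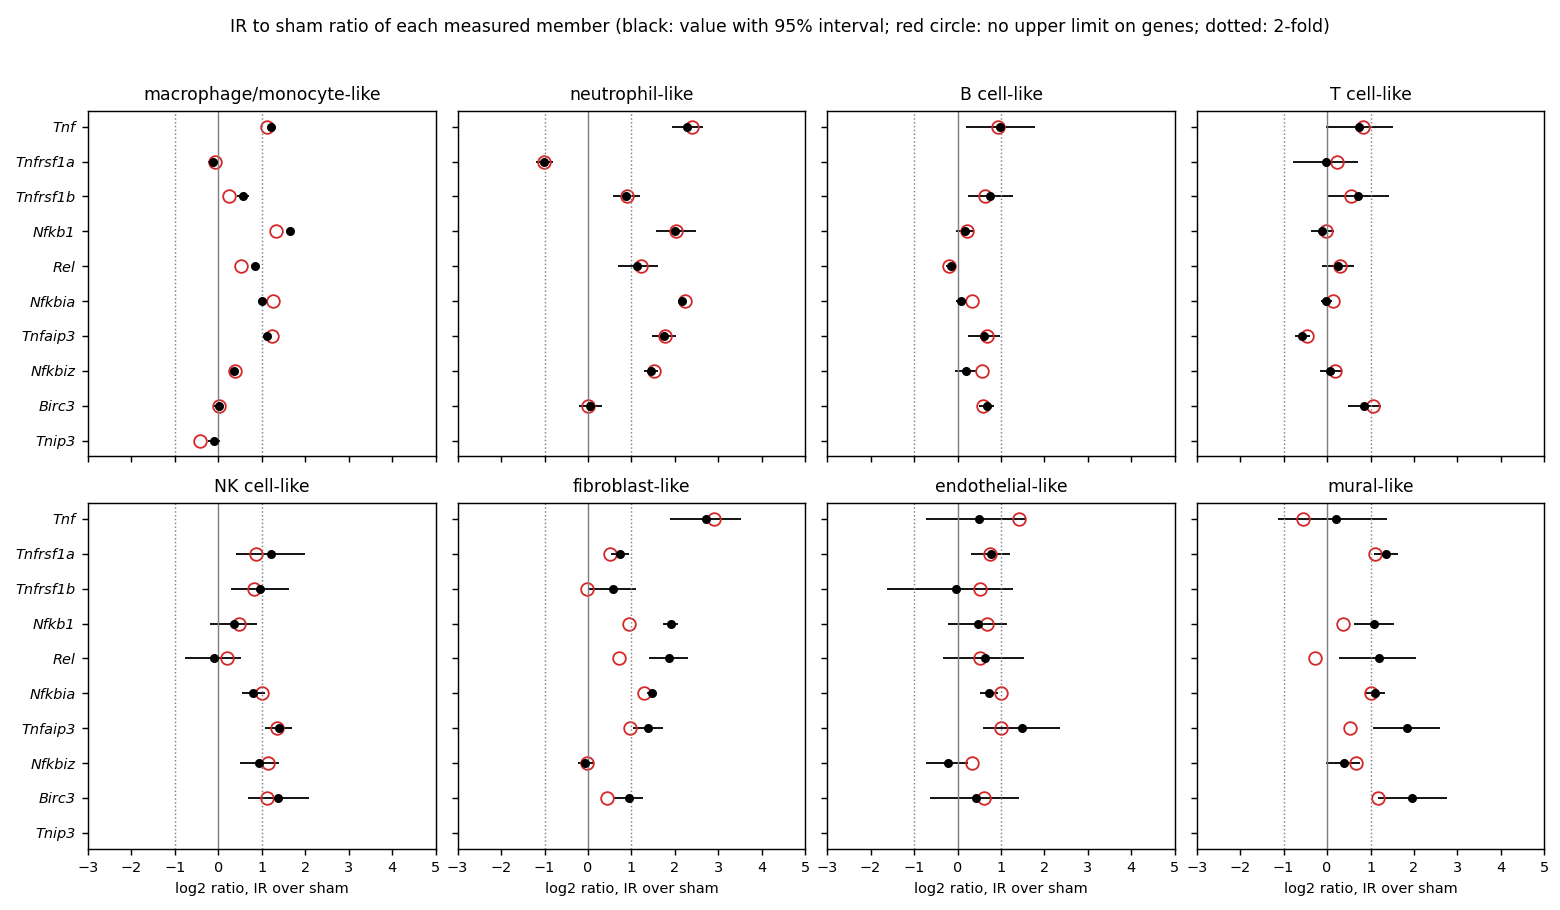
Log2 ratio of IR over sham (horizontal axis) for each measured member in the 8 cell classes, with the 95% interval for counting error (black) and the value without the upper limit on genes (red circles). Dotted lines mark 2-fold. In neutrophil-like cells 6 members lie past the right line and Tnfrsf1a at the left one, and in B and T cell-like cells all measured members lie between the lines.

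A class was often held by different clusters in the 2 libraries, and their part in the ratios was not tested. Of 3393 sham macrophage/monocyte-like cells, 1771 and 1207 lay in clusters led by Lyve1 and Folr2 and by Ccl12 and Cd72. Of 886 IR cells, 437 and 351 lay in clusters led by Mrc1 and Gdf15 and by Chil3 and Arg1. Sham neutrophil-like cells lay mostly (175 of 246) in a cluster led by Slfn4 and Rsad2, and IR ones (1397 of 2378) in a cluster led by Cxcl3 and Il1rn. B cell-like cells lay in separate clusters (1083 of 1094 in sham and 695 of 735 in IR), and 145 of 230 IR fibroblast-like cells lay in a cluster led by Cxcl5 and Ptx3. The 12 immediate-early and dissociation genes, which can be induced while tissue is digested, summed to 22929 CPM in sham and 8406 CPM in IR in fibroblast-like cells. The same sum was 22450 and 18627 CPM in macrophage/monocyte-like cells and 12258 and 12812 CPM in neutrophil-like cells. S100a8 and S100a9 in classes other than neutrophil-like ranged from 594 to 7707 CPM in IR among the 8 compared.

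The other genes of the pathway were taken as 45 genes in 7 lists. In macrophage/monocyte-like cells 38 were measured, 5 were higher and 1 lower, and their median log2 ratio was 0.38. Of all genes tested there, 9.83% were higher and 7.33% lower. The 3 with the largest differences were the receptor adaptor Traf1 (48.3 and 157 CPM, log2 ratio 1.70), Rhbdf2, which helps the TNF-releasing protease ADAM17 to the cell surface (16.7 and 46.7 CPM, 1.48), and Rnf31, the catalytic subunit of the linear ubiquitin ligase (25.3 and 9.62 CPM, -1.40). In neutrophil-like cells 35 were measured, 8 were higher and 2 lower, with a median of 0.17, against 11.6% and 18.0% of all genes. The 3 named there were Traf1 (26.1 CPM from 13 UMIs and 188 CPM, 2.85), Nfkbie, which encodes IκBε (22.1 CPM from 11 UMIs and 85.8 CPM, 1.96), and Nfkb2, the precursor of p52 (16.0 CPM from 8 UMIs and 55.4 CPM, 1.79). Fibroblast-like cells had 8 of 34 higher and 2 lower, against 14.2% and 14.5% of all genes. NK cell-like cells had 10 of 32 higher and 1 lower, against 14.0% and 9.38%. Mural-like cells had 6 of 35 higher and 2 lower, against 8.54% and 8.6%. Endothelial-like cells had 2 of 35 higher and 4 lower, against 8.72% and 14.5%. T cell-like cells had 2 of 33 higher and 1 lower, against 4.4% and 3.94%. B cell-like cells had none of 37 higher and 2 lower, against 3.58% and 3.14%.

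Within macrophage/monocyte-like cells the members differed between subclusters, and no named subcluster had 50 cells in both libraries. In sham, MHCII macrophage-like cells (902 cells) had more Tnf than Lyve1 macrophage-like cells (685 cells), with 461 CPM (440 to 482) against 185 CPM (171 to 199). They also had more Tnfaip3 (270 and 198 CPM) and Tnip3 (260 and 47.3 CPM). An unnamed subcluster led by Ccl8 and Cd72 (1128 cells) lay between them, with 317 CPM of Tnf. Ly6c2 monocyte-like cells (246 cells) had the lowest Tnf, 77.5 CPM (63.5 to 93.6), and the lowest Nfkbia, 838 CPM, together with the highest Tnfrsf1b, 381 CPM, among subclusters with at least 50 cells in a library. In IR, Trem2 macrophage-like cells (388 cells), led by Lpl and Gdf15, had the highest Tnf, 839 CPM (803 to 877). Trem2 itself was not among the 10 leading genes of this subcluster. The study reports a fall of its Trem2+ cluster after IR, and whether these cells match that cluster was not tested. Recruited macrophage-like cells (343 cells), led by Cxcl3, Chil3 and Arg1, had less Tnf, 588 CPM (554 to 623), and the most Nfkbia, 4686 CPM, against 2334 CPM in Trem2 macrophage-like cells. Nonclassical monocyte-like cells (67 cells) had 608 CPM of Tnf and the highest levels of Nfkbiz (2130 CPM), Rel (763 CPM) and Tnip3 (328 CPM). Ligand and inhibitor levels thus did not rank the IR subclusters in the same order. MHCII macrophage-like and dendritic cell-like clusters each listed Tnip3 among their 10 leading genes, although it was not used to cluster.

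**Figure D4:**
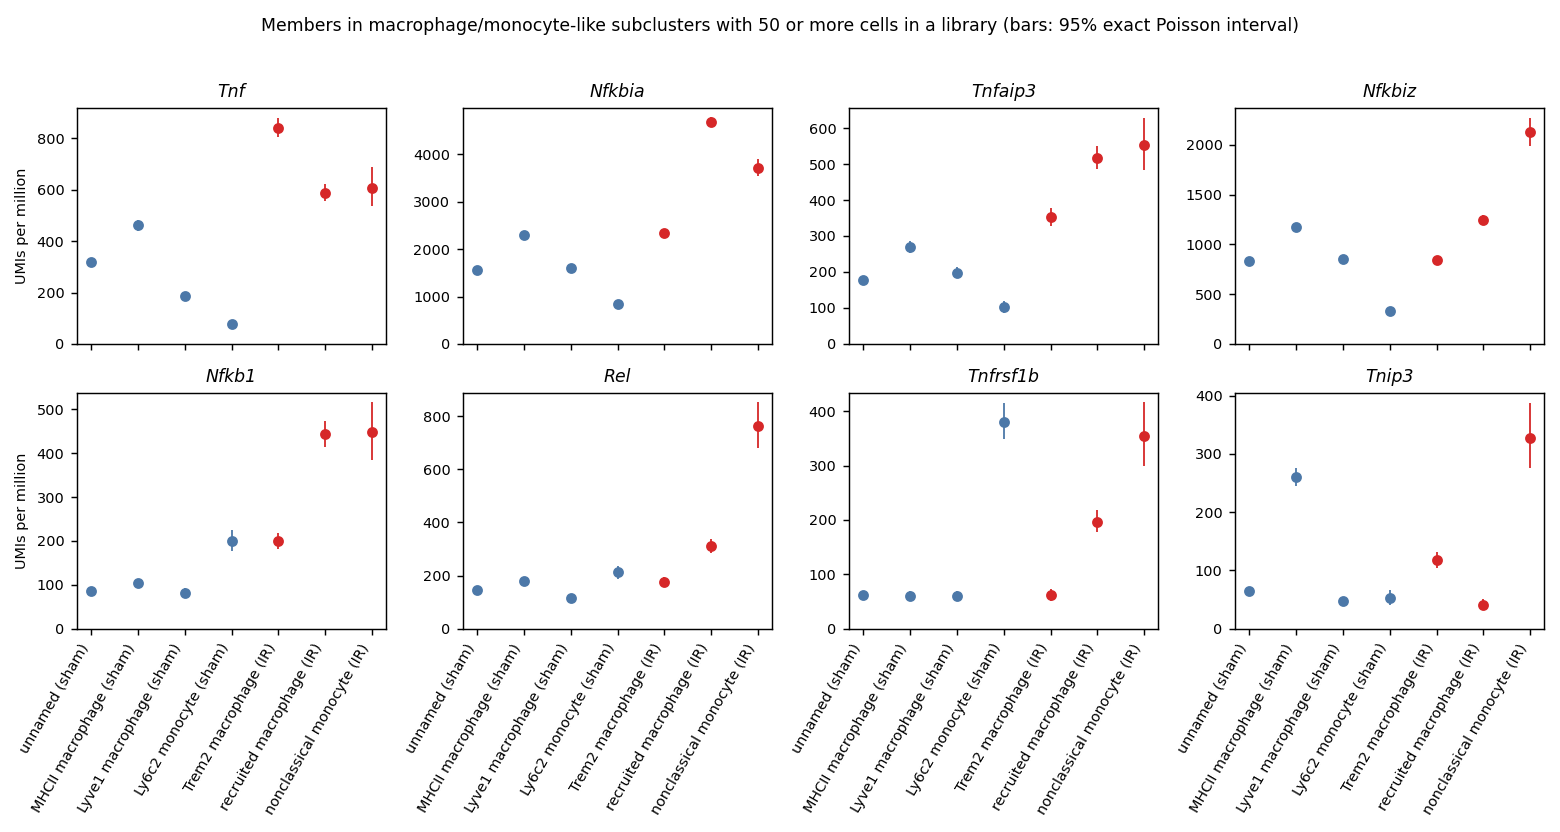
Level (CPM, linear axis from 0) of 8 members in macrophage/monocyte-like subclusters with at least 50 cells in a library, sham in blue and IR in red, with bars for the 95% exact Poisson interval. Tnf is lowest in Ly6c2 monocyte-like cells of sham (77.5 CPM) and highest in Trem2 macrophage-like cells of IR (839 CPM), while Nfkbia is highest in recruited macrophage-like cells of IR.

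The study divides cardiac macrophages by MerTK, an efferocytosis receptor of resident cells, and CCR2, a chemokine receptor of recruited ones. Subclusters were assigned by their relative Mertk and Ccr2 levels, which gave 2732 sham and 397 IR MerTK+CCR2- cells and 297 sham and 414 IR MerTK-CCR2+ cells. The names are relative, and MerTK+CCR2- cells were not free of Ccr2. They had 32.7 (sham) and 69.9 CPM (IR) of Mertk, and 48.7 and 80.6 CPM of Ccr2. A Mertk UMI was found in 13.6% and 26.4% of them. MerTK-CCR2+ cells had 1.23 and 9.25 CPM of Mertk, and 458 and 717 CPM of Ccr2. In sham, the Tnf level of MerTK+CCR2- cells was 329 CPM, against 123 CPM for MerTK-CCR2+ (log2 ratio of MerTK+CCR2- over MerTK-CCR2+ 1.41, 1.21 to 1.63). In IR it was 831 and 590 CPM (0.50, 0.40 to 0.59), so MerTK+CCR2- cells had the higher level in both libraries. With each cell classed by its own Mertk and Ccr2 UMIs, these ratios were 0.76 and 0.67, and that of sham was no longer past 2-fold. For Nfkbia the 2 classes had 1801 and 961 CPM in the sham library (0.91, 0.83 to 0.98), but 2298 and 4494 CPM in IR (-0.97, -1.01 to -0.92). Tnfaip3 had 212 and 115 CPM in the sham library, against 346 and 521 CPM after IR. Nfkbiz had 945 and 389 CPM, against 833 and 1391 CPM. For these 3 feedback genes the order of the classes was opposite in the 2 libraries. The same held without the limit on genes and with own Mertk and Ccr2 UMIs. By the latter rule the sham ratios were smaller, at 0.43 for Nfkbia, 0.28 for Tnfaip3 and 0.78 for Nfkbiz.

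Tnfrsf1b was higher in MerTK-CCR2+ cells in sham (348 against 61.0 CPM) and in IR (224 against 62.1 CPM). Nfkb1 was also higher there in both libraries (187 against 90.8 CPM, and 442 against 201 CPM). For Rel the levels were 202 against 148 CPM (sham) and 388 against 175 CPM (IR), and Birc3 133 against 121 CPM and 153 against 93.7 CPM. For Tnfrsf1a they were 277 against 141 CPM (sham) and 158 against 133 CPM in IR. Tnip3 was higher in MerTK+CCR2- cells (119 against 53.7 CPM in sham and 114 against 91.2 CPM in IR), but in sham this turned to -1.68 when each cell was classed by its own Mertk and Ccr2 UMIs. In IR it was -1.79 by that rule. The sham ratios of Tnfrsf1b (-1.69 against -2.51), Nfkb1 (-0.43 against -1.04), Tnfrsf1a (-0.38 against -0.97) and Rel (-0.13 against -0.45) were also nearer 0 by it, and that of Birc3 was 0.11 against -0.14. These own-UMI classes held 379 and 396 sham cells and 99 and 343 IR cells.

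Compared between libraries, 5 members were 2-fold or more higher in IR in MerTK-CCR2+ cells (Tnf, Nfkb1, Nfkbia, Tnfaip3 and Nfkbiz) and none lower, against 11.0% higher and 17.5% lower of 6615 genes. Their log2 ratios were 2.26, 1.24, 2.23, 2.18 and 1.84. In MerTK+CCR2- cells 2 were higher (Tnf 1.34 and Nfkb1 1.14) and none lower, against 9.75% higher and 4.93% lower of 7004 genes. The log2 ratio of Nfkbia in these cells was 0.35 (0.31 to 0.39) and that of Nfkbiz -0.18 (-0.25 to -0.11). Different subclusters held both classes in the 2 libraries. The MerTK+CCR2- cells of IR were mostly Trem2 macrophage-like (388 of 397), of which sham had 17 cells. Those 17 sham cells, too few to compare, had 904 CPM of Tnf (702 to 1146) and 226 CPM of Nfkb1 (132 to 362). The 388 IR cells had 839 and 200 CPM. The part of this shift between subclusters in the ratios was not tested. The MerTK-CCR2+ cells of sham were mostly Ly6c2 monocyte-like (246 of 297) and those of IR mostly recruited macrophage-like (343 of 414).

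**Figure D5:**
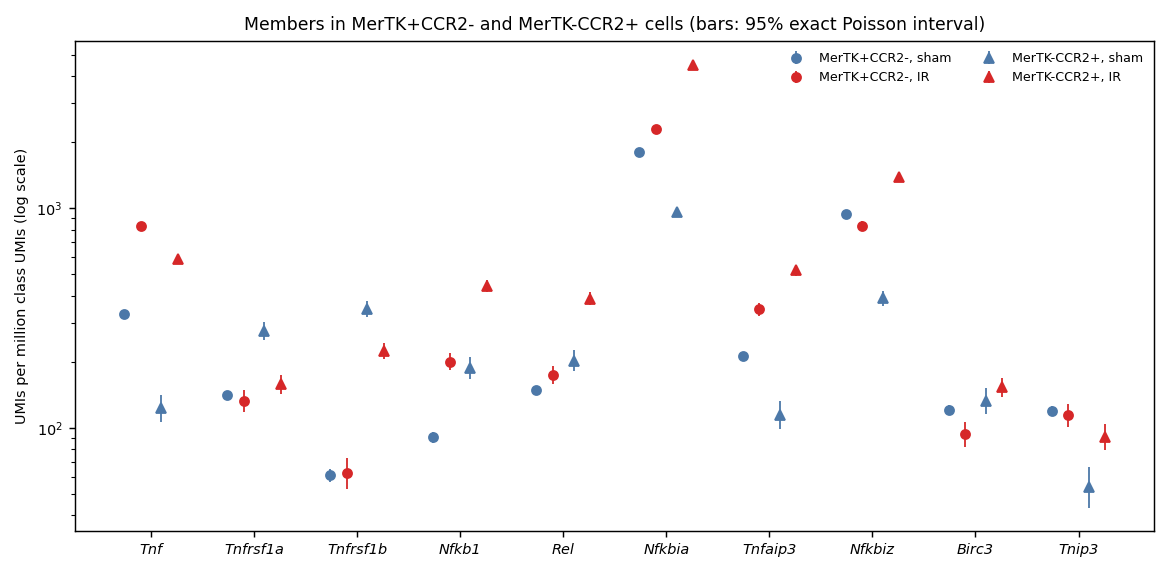
Level of the 10 members (CPM, log scale) in MerTK+CCR2- cells (circles) and MerTK-CCR2+ cells (triangles) of sham (blue) and IR (red), with bars for the 95% exact Poisson interval. Nfkbia, Tnfaip3 and Nfkbiz are higher in MerTK+CCR2- cells in sham and in MerTK-CCR2+ cells in IR, while Tnfrsf1b is higher in MerTK-CCR2+ cells in both.

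Genes whose levels varied most like a member were sought over 18 combinations of class and library with at least 50 cells, among 5915 genes with a mean of 20 CPM, as Pearson's r of log2(CPM + 10). These combinations share libraries and depth, and the values are descriptions. For Tnf they were Rbm47 (r = 0.967), Cd14 (0.958) and Bcl2a1a (0.937). For Nfkbia they were Cpeb2 (0.924), Nlrp3 (0.915) and the member Nfkbiz (0.912). For Tnfaip3 they were Atp8b4 (0.911), Lcp2 (0.887) and Nabp1 (0.887).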

How the data were processed

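The deposited counts are UMIs by gene and barcode in 1 matrix per condition, which the authors aligned to mm10 with Cell Ranger (3.1.0 in the matrix headers) after 10x Chromium 3′ libraries. Kept barcodes had 200 to 2500 genes and no more than 30% of UMIs from mitochondrial genes, and kept genes occurred in at least 5 cells, as in the study's methods. Counts were scaled to 10000 per cell, 2000 variable genes were taken without the members and the other listed genes, UMIs were regressed out, and 30 principal components and 30 neighbors were used for Leiden clustering at a resolution of 0.8 (leidenalg 0.10.2, igraph 0.11.9, scikit-learn 1.9.0, scipy 1.17.1, Python 3.11.15). A cluster was named when the mean of its 4 highest markers of a class was at least 1 (log2, relative to all clusters), 3 or more markers were found in over 10% of cells, no other class came within 0.6 and no other class led it, and 1 cluster of 88 cells stayed unnamed. The rule that scores the markers was set after the data were seen. Of the listed markers, 3 were not found in the matrices. Subclusters of macrophage/monocyte-like cells led by markers of another class or under 20 cells were left out, and doublets were removed by the limit on genes alone.

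Summed counts per class were divided by the class total. All 10 members were named. Other pathway genes were named only as the 3 with the largest ratio past 2-fold and at least 50 UMIs in the 2 myeloid classes, and like genes as the 3 with the highest r. The members and lists were chosen with earlier results of these data known. The interval and ratio code was tested on simulated counts. With 1 library per condition no test was possible. Gene positions are from GENCODE vM21 (GRCm38) and promoters from RefSeq. Captured transcripts are from 3′ ends, so levels were not compared between genes.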

Additional observations from a re-analysis of the deposited data

Results flagged for a closer look

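Tnfrsf1a was singled out because its difference between the libraries ran in opposite directions in different classes. The log2 ratio of IR over sham was -1.01 in neutrophil-like cells, but 1.20 in NK cell-like cells and 1.36 in mural-like cells. The difference between the classes was not tested, since each condition is 1 library. The neutrophil-like value was between -1.03 and -0.71 under all alternatives, the mural-like one (without the mitochondrial limit of 10%, which left too few cells) between 1.11 and 1.45, and the NK cell-like one between 0.58 and 1.72.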

How the results depend on the processing

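Counts of members 2-fold or more higher in IR that moved by over 1.5 times are given by setting. Without the upper limit on genes they were 1 in T cell-like, 5 in NK cell-like, 2 in fibroblast-like, 2 in endothelial-like and 3 in mural-like cells. The shares of all genes higher in these classes were 4.4%, 11.9%, 10.6%, 6.16% and 6.0%. With each cell classed by its own marker UMIs they were 2 in T cell-like and 2 in endothelial-like cells, against 4.91% and 9.47% of all genes. With that and no limit on genes, chosen after seeing the data, they were 3 in T cell-like, 1 in fibroblast-like and 4 in endothelial-like cells. The shares of all genes there were 4.68%, 10.1% and 7.09%. As a mean over cells the count was 1 for macrophage/monocyte-like and 1 for B cell-like cells, and the share of all genes was not computed. For B cell-like cells the count was 2 when scaled without mitochondrial, ribosomal protein and hemoglobin genes, and 1 with a mitochondrial limit of 10%. The shares of all genes higher were 5.92% and 4.56%. The count lower in IR was 0 in neutrophil-like cells with that limit of 10%, with own marker UMIs (with or without the limit on genes) and with high doublet scores removed, and 1 in NK cell-like cells with neutrophil RNA removed. In the same order, the shares of all genes lower were 18.1%, 26.8%, 20.5%, 19.2% and 9.32%. At a resolution of 1.5 all 26 ratios past 2-fold stayed past it in the same direction. Of these 26, 19 stayed so without the limit on genes. Of the ratios past 2-fold, 2 changed sign, Rel in mural-like cells without the limit (-0.27) and the IR to sham ratio of Rel in neutrophil-like cells with own marker UMIs and no limit (-0.0187), as did the MerTK+CCR2- over MerTK-CCR2+ ratio of Tnip3 in sham with own Mertk and Ccr2 UMIs (-1.68). The cause was not tested. Without the limit on genes, a macrophage/monocyte-like cluster led by Mrc1 and Gdf15 was kept although the platelet marker Ppbp, and no marker of its own, was among its leading genes. Endothelial-like cells with doublets removed, and endothelial-like and mural-like cells with the limit of 10%, had under 50 cells in a library and gave no value. No paired analysis was possible because no barcode can be tied to a sample. Depth limits the values from few UMIs most, such as Tnf in NK cell-like cells (7 and 5 UMIs).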
